A study of Rattus norvegicus with 16 samples.

Results

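Enpp1, Alpl, Ankh, Nt5e, Mgp and Spp1 govern extracellular pyrophosphate, the adenosine made beside it and the proteins that hold back or organise mineral. They were followed in cultured rat muscle cells given an androgen receptor agonist. These 6 genes, of 14217 with a probe set annotated to exactly 1 symbol, were taken by symbol, and every probe set that carried only that symbol was used. This gave 7 probe sets of 20826: 2 for Ankh and 1 for each of the other genes. The list was selected on earlier results of these arrays, in which Enpp1 was among the strongest risers under the agonist at 48 h. The 48 h values of all 6 genes are therefore given as a description. No p is given for them in any comparison that uses 48 h arrays, and counts of calls there are stated with nothing read from them.

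The cells were satellite cells, the resident stem cells of muscle, from the levator ani of the rat, an androgen-responsive muscle of the pelvic floor. They were cultured to passage 5. The groups were 10 nM NARA (a nonsteroidal androgen receptor agonist) for 48 h, vehicle (0.2% DMSO) for 48 h, 10 nM NARA for 4 h and vehicle for 4 h, with 4 arrays each. In all 4 groups the medium held 10% serum treated with charcoal to take out steroid hormones. The sample titles call the replicates biological. The strain, age and sex of the rats, and whether replicates came from separate cultures or animals, were not given in the sources used here. The p-values here can therefore speak only for the spread among these arrays, part or all of which may be technical. The authors left out 3 arrays, replicate 1 of vehicle 48 h and replicates 1 and 4 of NARA 4 h. The comparisons below rest on 4 NARA 48 h, 3 vehicle 48 h, 2 NARA 4 h and 4 vehicle 4 h arrays, and their number limits the precision.

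Pyrophosphate, made of a pair of linked phosphate groups, binds to growing calcium phosphate crystals and stops their growth. ENPP1 makes it outside the cell from ATP and leaves AMP, and ANKH raises the pool outside the cell by releasing ATP or pyrophosphate. ALPL, tissue-nonspecific alkaline phosphatase, breaks pyrophosphate down to phosphate, so the balance of these proteins sets whether a matrix can mineralise. NT5E (CD73) takes the AMP on to adenosine, the ligand of the adenosine receptors. MGP, matrix Gla protein, is a small vitamin K-dependent inhibitor of calcification in soft tissue and vessels, and SPP1, osteopontin, is a phosphorylated, acidic matrix protein that binds mineral and integrins. In people, loss of ENPP1 or NT5E leads to arterial calcification. ENPP1 also binds the insulin receptor and cleaves the cyclic dinucleotide cGAMP.

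Promoter sequence of 4 of the 6 genes was found in the RefSeq table (GRCr8): Alpl, Ankh, Nt5e and Spp1. The 250 bases before the start of Nt5e and Spp1, whose NARA arrays lay above all vehicle arrays at 48 h, are printed 5′ to 3′ on the gene's strand. Capitals mark GC boxes (GGGCGG) and the Runx motif (AACCGCA or AACCACA), each searched on both strands. Nt5e lies on the plus strand at chr8:98150675-98150924 and Spp1 on the minus strand at chr14:5619805-5620054.
Nt5e: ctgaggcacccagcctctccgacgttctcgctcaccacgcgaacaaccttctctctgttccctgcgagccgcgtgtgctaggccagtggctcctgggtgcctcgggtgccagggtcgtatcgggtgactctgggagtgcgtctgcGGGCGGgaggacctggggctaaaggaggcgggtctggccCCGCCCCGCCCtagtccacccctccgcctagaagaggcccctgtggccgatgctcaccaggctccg
Spp1: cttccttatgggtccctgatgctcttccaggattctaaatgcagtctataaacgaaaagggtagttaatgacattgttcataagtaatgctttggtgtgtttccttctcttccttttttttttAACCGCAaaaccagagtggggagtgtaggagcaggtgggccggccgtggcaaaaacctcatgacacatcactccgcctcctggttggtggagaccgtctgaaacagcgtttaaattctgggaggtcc
The window before Nt5e held 3 GC boxes, at -105, -66 and -61 from the start, and the last 2 overlap. That before Spp1 held 0 GC boxes and 1 Runx motif, at -127. GC boxes were found 4 times before Alpl and 2 times before Ankh. Of all 33469 windows of this length in the table, 30.5% held a GC box and 5.76% the Runx motif. The androgen receptor half-site AGAACA and the full element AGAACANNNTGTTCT had 0 matches in the 4 windows, where 17.5% and 0.012% of all windows held them. A match describes the letters only, and the lack of one says only that these letters are not in this window.

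Values are MAS5 signals, which the authors had scaled to a trimmed mean of 1500 on each array. The 13 arrays correlated at 0.930 to 0.956 with each other over probe sets, and their median signals lay between 538.8 and 612.8. The signal of one gene was never set against that of another, since probe sets differ in brightness. Sums of marker signals add the probe sets as they are, so the brighter ones weigh more in them. Log2 changes are on the scale of log2(signal + 50), which understates the change of dim probe sets, and errors of log2 changes are standard errors (SE) from limma. A probe set was tested where its signal averaged 300 or more across the 13 arrays, as 20904 did. Of the 7 probe sets, 6 met this minimum and 1, that of Alpl, did not. RNA came from whole cultures, where fewer cells of a type and less RNA per cell cannot be told apart.

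The labelled cell type was checked on its markers. Of 12 satellite cell and myoblast markers, 10 had a probe set and 8 reached the minimum, whereas all 8 fibroblast markers did. Of the markers with a probe set, 5 of 5 chondrocyte and 6 of 6 smooth muscle and pericyte markers reached it too. So did 4 of 5 endothelial, 4 of 7 macrophage and 4 of 6 liver markers. Reaching the minimum therefore does not tell cell types apart. The annotation assigned no probe set to Pax7 or Myf5. Myod1, the myoblast determination factor, averaged 83.87 ± 87.2 over the 13 arrays (SD), below the minimum. Desmin (Des), the muscle intermediate filament protein, averaged 773.8 ± 126 and Myog, the myogenic differentiation factor, 1117 ± 362. Of 7 osteoblast markers, 5 had a probe set and only Col1a1, shared with fibroblasts, reached the minimum. The bone proteins Bglap, Ibsp and Dmp1 and the endopeptidase Phex lay below it.

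At 48 h, Enpp1, Nt5e and Spp1 had higher signals under NARA than under vehicle in every array, while Mgp and both probe sets of Ankh overlapped between the groups. Enpp1, the enzyme that makes pyrophosphate, had signals of 4170, 4738, 3653 and 5558 in the NARA 48 h arrays and 728, 469 and 780 in the vehicle 48 h arrays. All 4 NARA arrays lay far above all 3 vehicle arrays, with no overlap. The means were 4530 ± 816 (SD, n = 4) under NARA and 659.1 ± 166.6 (SD, n = 3) under vehicle. The log2 change was 2.70 (SE 0.235), 6.52-fold, with a 95% interval of 2.19 to 3.22. It ranked 6 from the top among the changes of the 20904 probe sets.

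Nt5e, which makes adenosine from the AMP that ENPP1 leaves, had signals of 2512, 1765, 2702 and 2384 in the NARA 48 h arrays and 1242, 1237 and 760.5 in the vehicle 48 h arrays. The lowest NARA array stood above the highest vehicle array. The mean was 2340 ± 405.5 (SD, n = 4) under NARA and 1080 ± 276.6 (SD, n = 3) under vehicle. Its log2 change of 1.10 (SE 0.197, 95% interval 0.67 to 1.53), 2.14-fold, ranked 168 from the top. Spp1, the gene of osteopontin, had signals of 21820, 17040, 20270 and 20470 in NARA 48 h arrays and 14180, 14490 and 16600 in vehicle 48 h arrays. The groups did not overlap, although the lowest NARA array and the highest vehicle array were close. The means were 19900 ± 2024 (SD, n = 4) under NARA and 15090 ± 1320 (SD, n = 3) under vehicle, a log2 change of 0.40 (SE 0.134, 95% interval 0.10 to 0.69).

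Mgp, the vitamin K-dependent inhibitor, had signals of 2932, 2532, 3846 and 4329 in NARA 48 h arrays and 3993, 2640 and 3548 in vehicle 48 h arrays. The groups lay on the same range. The means were 3410 ± 823 (SD, n = 4) under NARA and 3393 ± 690 (SD, n = 3) under vehicle, and the 95% interval of the log2 change ran from -0.67 to 0.66. Ankh, the exporter, had signals of 3993, 3538, 3617 and 3694 in NARA 48 h arrays and 3862, 4252 and 3206 in vehicle 48 h arrays on its brighter probe set. The NARA arrays lay within the span of the vehicle arrays. The 95% interval of the log2 change was -0.30 to 0.26. On the dimmer probe set Ankh averaged 2339 ± 416 (SD, n = 4) under NARA and 2677 ± 496 (SD, n = 3) under vehicle, with an interval of -0.57 to 0.18.

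Alpl, the phosphatase that removes pyrophosphate, was dim on every array. Its signals were 25, 23, 25 and 28 in NARA 48 h arrays and 37, 32 and 27 in vehicle 48 h arrays. They were 47 and 72 in NARA 4 h arrays and 39, 39, 27 and 18 in vehicle 4 h arrays. All 13 values lay well below the minimum of 300, so the changes of Alpl between groups were not tested. The probe set name ends in _s_at, the type that can match transcripts of more than 1 gene.

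**Figure D1:**
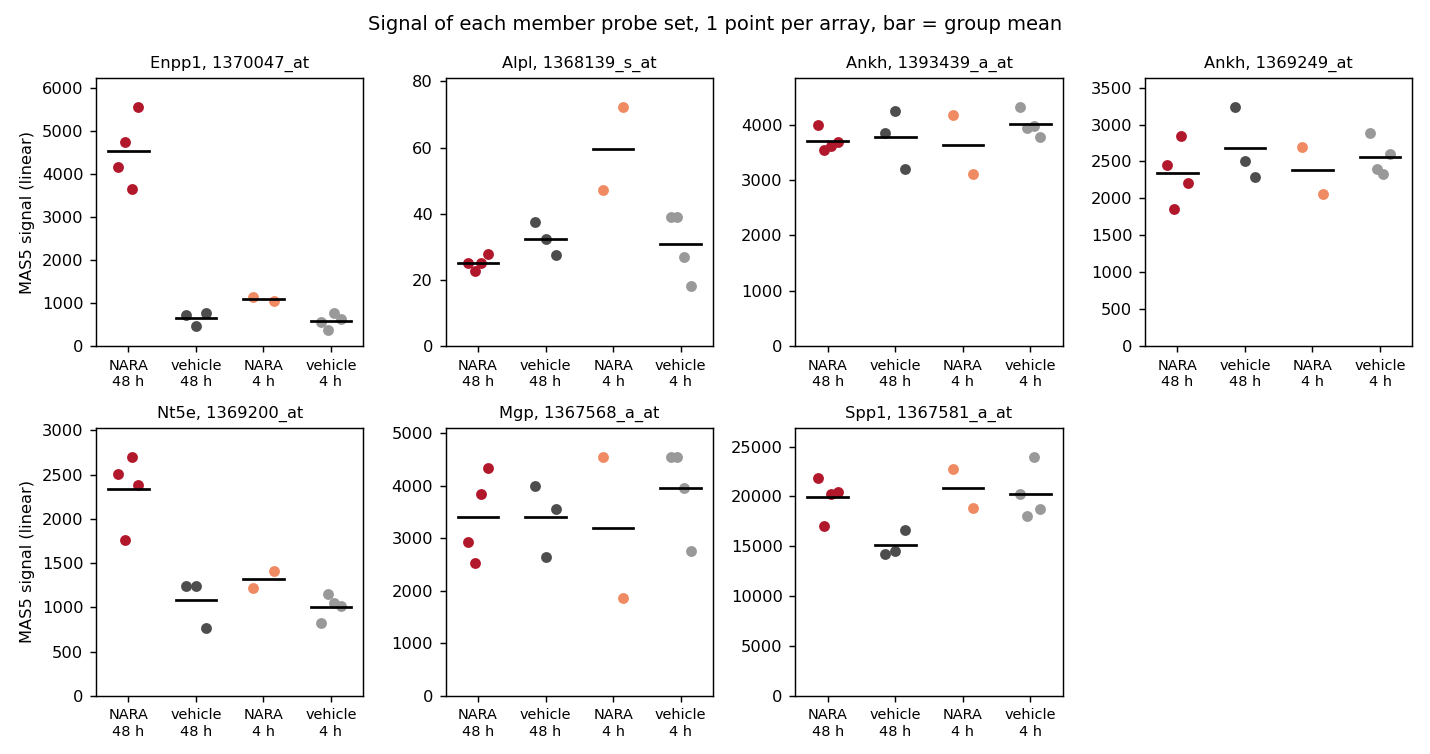
MAS5 signal (linear scale, y axis from 0) of each probe set of the 6 genes in NARA 48 h, vehicle 48 h, NARA 4 h and vehicle 4 h arrays, with 1 point per array and a bar at the group mean. Enpp1 stands at 3653 to 5558 in NARA 48 h arrays, above every other array, Nt5e and Spp1 are higher in NARA than in vehicle at 48 h, and Alpl stays at or below 72.

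Of the 6 probe sets fitted, 2 (Enpp1 and Nt5e) were past an adjusted p threshold of 0.05 at 48 h in limma, both higher in NARA, where 2.8% of all probe sets passed in either direction and 1.36% were higher. In 3 of the 6 every NARA array lay above every vehicle array, as in 7.19% of all probe sets. The genes were chosen on this comparison, so nothing is read from these counts. Nt5e was not past it when only the NARA 48 h and vehicle 48 h arrays were fitted or when all 16 arrays were used, with log2 changes of 1.10 and 1.11. The summed signal of the satellite cell markers was 11630 to 13880 in NARA 48 h arrays and 18200 to 22120 in vehicle 48 h arrays, and 2 of the 8 tested, Cxcr4 and Sdc4, passed as lower, with log2 changes of -3.02 and -0.72. The other 6 did not pass, with Itga7 at 0.95, Ncam1 at 0.63, Myog at 0.18 and Cdh15 at 0.05, and Des at -0.07 and Vcam1 at -0.17. The summed liver markers were 3189 to 3712 in NARA and 2153 to 3183 in vehicle, with 0 of 4 passing. Serpina1, the antitrypsin gene, was at 1129 to 1467 in NARA and 585.7 to 1096 in vehicle, with no overlap (log2 0.74, adjusted p = 0.0728 in limma). Alb, the albumin gene, overlapped at 515.1 to 779.2 in NARA and 520.0 to 726.0 in vehicle, and the log2 changes of Alb, Ttr and Ahsg were -0.07, -0.21 and 0.34. Summed fibroblast markers were 377300 to 479400 in NARA and 359900 to 449300 in vehicle. Of the 8, 2 passed as lower, Lum and Pdgfra, with log2 changes of -1.06 and -0.75. The rest did not pass, with Col3a1 at 0.39, Col1a2 at 0.23, Col1a1 at 0.04, Fap at -0.0, Thy1 at -0.27 and Dcn at -0.56. The part of these markers in the 48 h values was not tested.

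The 4 h signals are not part of the difference between the 48 h groups, although all 4 groups share 1 estimate of the spread, and at 4 h the genes were tested. Enpp1 had signals of 1140 and 1037 in the NARA 4 h arrays and 562, 368, 764 and 620 in the vehicle 4 h arrays. Both NARA arrays lay above all 4 vehicle arrays. The log2 difference was 0.90 (SE 0.266, 95% interval 0.31 to 1.48), 1.86-fold. It did not pass in limma, with an unadjusted p of 0.006 and an adjusted p of 0.732 over all probe sets. Nt5e had 1219 and 1413 in NARA 4 h arrays and 820, 1148, 1046 and 1017 in vehicle 4 h arrays. Its groups did not overlap either, by a narrow margin, and the log2 difference of 0.375 (95% interval -0.11 to 0.86) had an adjusted p of 0.9998 in limma.

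The other tested genes overlapped between the 4 h groups. Spp1 had signals of 22790 and 18880 in NARA 4 h arrays and 20200, 18000, 23970 and 18750 in vehicle 4 h arrays, with an interval of the log2 difference from -0.29 to 0.38. Mgp had 4546 and 1850 in NARA 4 h arrays and 4545, 4541, 3955 and 2749 in vehicle 4 h arrays. The 2 NARA arrays of Mgp lay at opposite ends of its range, and the interval was wide, at -1.17 to 0.35. Its log2 difference of -0.408 turned to 0.229 without NARA 4 h replicate 3. Ankh gave intervals of -0.47 to 0.17 and -0.53 to 0.31 on its 2 probe sets.

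At 4 h, 0 of the 6 probe sets passed, as did 0.0% of all probe sets in limma, of which 992 had an unadjusted p under 0.05. In 2 of the 6, Enpp1 and Nt5e, every NARA array lay above every vehicle array, as in 7.32% of all probe sets. On the sum of the liver markers the NARA 4 h arrays were at 2356 to 2599 and the vehicle 4 h arrays at 2355 to 3037, and on that of the satellite markers at 15110 to 17280 and 17490 to 19950. Within the satellite sum, Sdc4 overlapped at 7787 to 8958 in NARA and 8574 to 9946 in vehicle. Cxcr4 overlapped too, at 2138 to 2834 and 2510 to 4583, as did Des and Myog.

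Time was compared within each treatment. These comparisons use the same 48 h arrays as those above, in which the genes were chosen, so they too are a description. Under NARA, Enpp1 was 3.98-fold higher at 48 h than at 4 h, a log2 change of 1.99 (SE 0.266, 95% interval 1.41 to 2.58). The 4530 ± 816 (SD, n = 4) after 48 h stood against 1089 ± 73.0 (SD, n = 2) after 4 h. Nt5e had no overlap between the times under NARA, at 2340 ± 405.5 (SD, n = 4) after 48 h and 1316 ± 137.0 (SD, n = 2) after 4 h, a log2 change of 0.79 (SE 0.223). Past the threshold was 1 of 6 probe sets, that of Enpp1, where 0.785% of all were, and 0 were without NARA 4 h replicate 3, a fit in which 1 NARA 4 h array is assumed to vary like the other groups. In 2 of the 6, Enpp1 and Nt5e, every NARA 48 h array lay above every NARA 4 h array, where 10.1% of all did.

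In vehicle, 0 of the 6 were past the threshold between 48 h and 4 h, as were 0.0% of all probe sets in limma, of which 1536 had an unadjusted p under 0.05. Spp1 was the 1 fitted gene of the list whose vehicle arrays separated by time. Its 14180, 14490 and 16600 at 48 h all lay below its 20200, 18000, 23970 and 18750 at 4 h, a pattern that 4.62% of all probe sets had. The log2 change was -0.42 (SE 0.134, 95% interval -0.71 to -0.12). Under NARA the signal of Spp1 overlapped between the times, at 19900 ± 2024 (SD, n = 4) after 48 h and 20840 ± 2761 (SD, n = 2) after 4 h, with an interval of -0.40 to 0.27. Enpp1 in vehicle averaged 659.1 ± 166.6 (SD, n = 3) after 48 h and 578.5 ± 163.9 (SD, n = 4) after 4 h, with overlapping arrays and an interval of -0.33 to 0.70.

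Across the 4 groups, Enpp1 was highest in NARA 48 h, then NARA 4 h, then both vehicle groups, which overlapped. Nt5e followed the same order, but its NARA 4 h and vehicle 48 h arrays overlapped. For Spp1 the vehicle 48 h group was lowest, and the other groups overlapped. The NARA effect at 48 h minus that at 4 h was 1.81 (SE 0.355) for Enpp1, 0.72 (SE 0.298) for Nt5e and 0.35 (SE 0.202) for Spp1 on the log2 scale, given as a description since it holds the 48 h comparison.

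**Figure D2:**
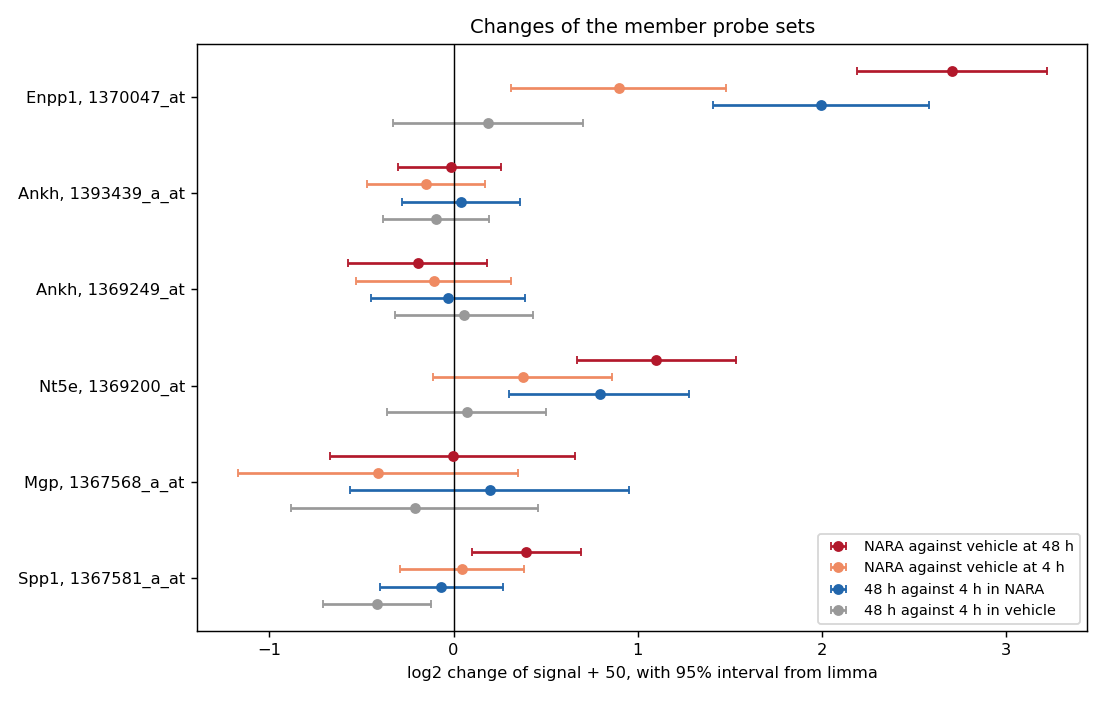
Log2 change of signal + 50 (x axis) with its 95% interval from limma for the 6 tested probe sets, in NARA against vehicle at 48 h and at 4 h and in 48 h against 4 h under NARA and in vehicle. Enpp1 stands at 2.70, 0.90, 1.99 and 0.185 in these comparisons, and the intervals of Ankh and Mgp include 0 in each.

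The other genes of these pathways were taken from 6 lists of 84 genes in all, of which 77 had a probe set and 63 were tested by their brightest probe set. At 48 h, 3 of the 63 were higher in NARA and 2 lower past the threshold of 0.05 in limma, where 1.71% of 11286 genes were higher and 1.5% lower. The median log2 change was 0.05 over the 63 and -0.0051 over all genes tested. The listed genes that passed were Tgm2, Tnfrsf11b, Itgb3, Slc20a2 and Msx2. The lists were chosen with earlier results of these arrays known. Their calls and p-values in comparisons that use 48 h arrays are therefore a description.

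Among proteins that bind mineral or modify those that do, 15 genes had a probe set and 10 were tested. All 10 had a log2 change above 0, from 0.05 to 1.06 with a median of 0.24, and 2 of 10 passed. The share of all genes above 0 is not given here, so nothing is read from counts of signs in this or the other lists. Tgm2, the transglutaminase that crosslinks osteopontin and other matrix proteins, rose to 4247 ± 973 (SD, n = 4) under NARA, against 1992 ± 283 (SD, n = 3) under vehicle. Its log2 change was 1.06 (SE 0.171, adjusted p = 0.00661 in limma). A second, dimmer probe set of Tgm2 had 0.405 with an adjusted p of 0.466. Tnfrsf11b, osteoprotegerin, the decoy receptor for the osteoclast factor RANKL, rose to 1536 ± 74.8 (SD, n = 4) under NARA, against 902.9 ± 110 (SD, n = 3) under vehicle (log2 0.74, SE 0.122, adjusted p = 0.00739 in limma). Gas6, a vitamin K-dependent growth factor-like protein, gave opposite signs on different probe sets: 0.45 (adjusted p = 0.169) on the brightest, and -0.52 (adjusted p = 0.0192) and 0.065 (adjusted p = 0.88) on the others. The secreted bone proteins Ibsp, Dmp1 and Bglap were below the minimum signal.

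Of the 8 receptors of osteopontin, 1 passed. Itgb3, the integrin β3 subunit that pairs with αv, rose to 687.7 ± 87.8 (SD, n = 4) under NARA, against 315.9 ± 129 (SD, n = 3) under vehicle (log2 1.08, SE 0.236, adjusted p = 0.0336 in limma). This call held in 8 of 23 other settings and in 5 of the 13 that left out 1 array, with adjusted p up to 0.0854 in that set. It held without vehicle 4 h replicate 1, 2 or 4, vehicle 48 h replicate 2 or NARA 48 h replicate 2, and was lost without any other array. Its partner Itgav had a log2 change of -0.373 and Cd44, the hyaluronan and osteopontin receptor, -0.523, with adjusted p of 0.198 and 0.102. The list's median was -0.19.

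Of the 11 tested genes of phosphate transport and matrix vesicles, 2 had a log2 change above 0 and the median was -0.16. Slc20a2, a sodium-phosphate cotransporter that takes phosphate into the cell, fell to 2412 ± 400 (SD, n = 4) under NARA, against 3599 ± 188 (SD, n = 3) under vehicle (log2 -0.58, SE 0.135, adjusted p = 0.0454 in limma). Its other probe set had -0.84 (adjusted p = 0.0673), and the call on the brightest held in 2 of the 13 settings that left out 1 array, with adjusted p up to 0.119. It held without vehicle 4 h replicate 3 or NARA 48 h replicate 2, and was lost without any other array. Among 14 tested regulators of bone formation, Msx2, a homeobox factor of skull and limb, fell to 759.4 ± 93.0 (SD, n = 4) under NARA, against 1399 ± 207 (SD, n = 3) under vehicle (log2 -0.84, SE 0.14, adjusted p = 0.00803 in limma). Its other probe set had -0.225 (adjusted p = 0.563). The annotation assigned no probe set to the osteoblast factors Runx2 and Sp7.

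Calls of Tgm2, Tnfrsf11b and Msx2 held when any 1 array was left out. With all 16 arrays none of the 5 genes passed, and with only the 48 h arrays fitted Tnfrsf11b alone did.

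Among 12 tested genes of pyrophosphate and extracellular nucleotides, 0 passed and 5 had a log2 change above 0, with a median of -0.02. The smallest p belonged to Panx1, an ATP-release channel, at -0.625 (SE 0.172, adjusted p = 0.0868 in limma), and Enpp3, a relative of Enpp1, at 0.665 (SE 0.205, adjusted p = 0.121 in limma). Of 8 tested genes of adenosine handling and reception, 0 passed and 7 had a log2 change above 0, with a median of 0.18. Adk, adenosine kinase, had 0.407 (SE 0.0987, adjusted p = 0.0537 in limma) and Dpp4, which anchors adenosine deaminase in people, 0.46 (SE 0.136, adjusted p = 0.106 in limma).

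At 4 h, 0 of the 63 genes passed in limma and 3 had an unadjusted p under 0.05, where 4.28% of all genes did, so the count is no result about the lists. They are named after their values were seen: Xpr1, the phosphate exporter, at 0.401, Msx1, a homeobox factor, at -0.418 and Msx2 at -0.509 (adjusted p of 0.893, 0.942 and 0.792). Under NARA, Tgm2 was higher at 48 h than at 4 h (log2 1.03, adjusted p = 0.0353 in limma), and it was the only 1 of the 63 to pass there, where 0.868% of all genes did. In vehicle 0 of the 63 passed between the times.

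**Figure D3:**
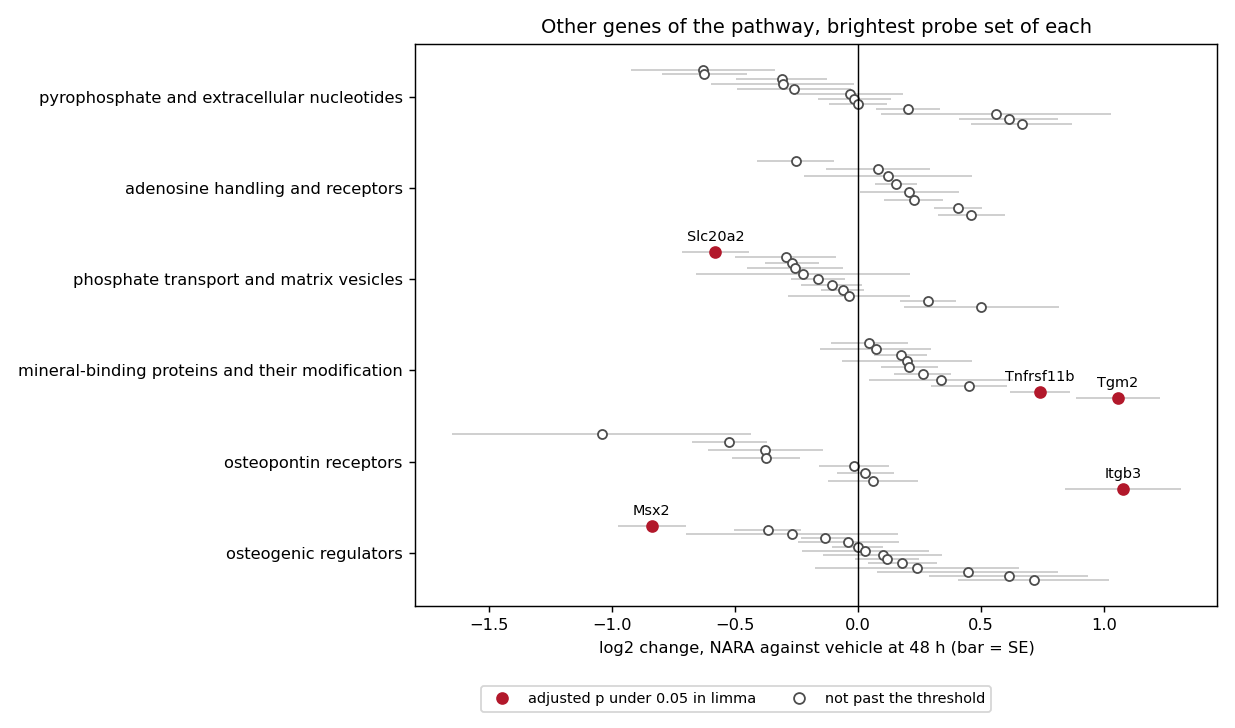
Log2 change of signal + 50 (x axis, bar = SE) in NARA against vehicle at 48 h for the 63 tested genes of the 6 lists, 1 point per gene by its brightest probe set, filled red where the adjusted p from limma was under 0.05. Tgm2, Tnfrsf11b and Itgb3 stand at 1.06, 0.74 and 1.08, and Slc20a2 and Msx2 at -0.58 and -0.84.

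Genes whose signal followed that of Enpp1 most closely over the 13 arrays were Ctnnal1 (Pearson r = 0.976), a catenin-like protein, Lmo4 (0.969), a LIM-domain transcription cofactor, Igf1 (0.963), the insulin-like growth factor, Kctd14 (0.961) and Col11a1 (0.96), a minor fibrillar collagen. Their log2 changes at 48 h were 2.35, 1.60, 1.60, 1.47 and 1.04, against 2.70 for Enpp1. For Nt5e they were Camk1 (0.968), a calmodulin-dependent kinase, Rcn3 (0.954), a calcium-binding protein of the endoplasmic reticulum, Rhob (0.95), a small GTPase, Ces1d (0.949), a carboxylesterase, and Ramp2 (0.949), a partner of the calcitonin receptor-like receptor. Of these, Ces1d had the greatest log2 change at 48 h, 3.16, and Rcn3 the least, 0.63, against 1.10 for Nt5e. Enpp1 and Nt5e correlated at 0.855 with each other. Mgp correlated with Enpp1 at -0.108 and Spp1 with Enpp1 at 0.312. The 2 probe sets of Ankh correlated at 0.531. All points of these correlations share the same 13 arrays and 4 groups, and genes were picked as the closest of those tested, so they are descriptions.

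**Figure D4:**
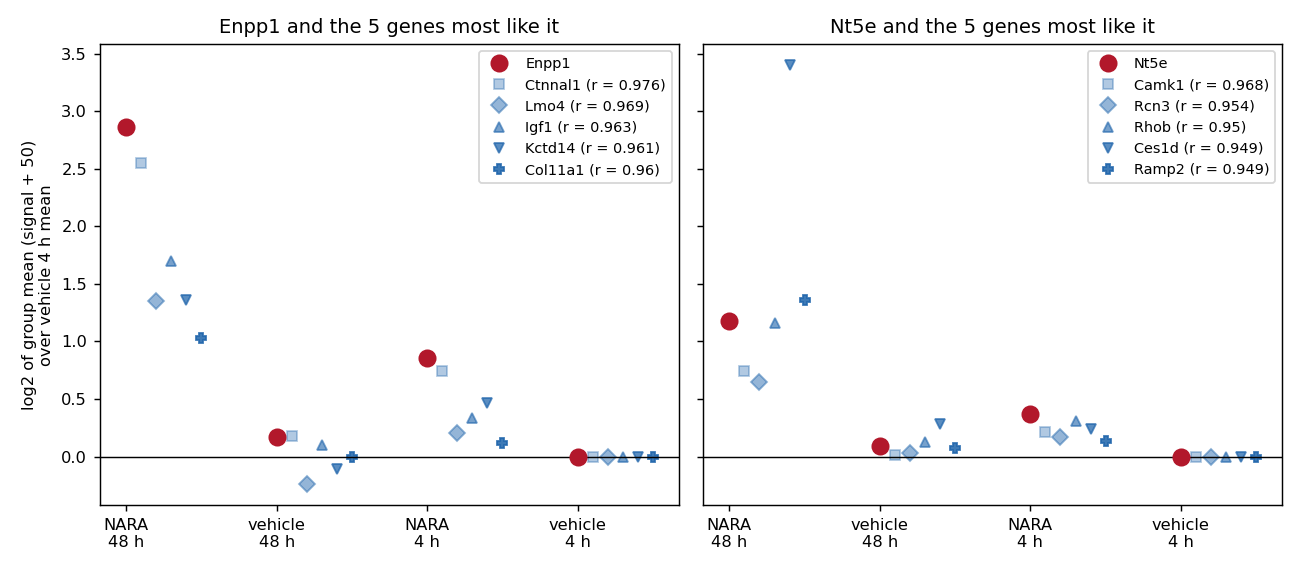
Log2 of the group mean of signal + 50 over that of vehicle 4 h (y axis) in the 4 groups for Enpp1 (left) and Nt5e (right) as filled circles, with the 5 genes of highest Pearson correlation with each as other shapes. Each series is highest in NARA 48 h.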

How the data were processed

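RNA of 16 samples was hybridised to Affymetrix Rat Genome 230 2.0 arrays, 1 per sample. The sources name both Trizol and a column kit for the extraction. The deposited intensity values are linear MAS5 signals (per the submitters' processing notes), and the authors scaled each array to 1500 (per the series' design text). The 3 arrays the authors left out were left out here. Of 31099 probe sets, 57 were controls, and 20826, 436 and 9780 of the others had 1, several and no symbol in the platform annotation.

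Log2(signal + 50) of the 20904 probe sets averaging 300 or more over 13 arrays was computed from the deposited intensities and fitted as 4 group means with limma 3.58.1 (R 4.3.3), with 9 residual and 2.4 prior degrees of freedom. Two-sided p-values were adjusted by Benjamini-Hochberg over all probe sets, with a threshold of 0.05. The fit was also run on simulated data with independent noise for each probe set and array, and no statement here rests on that run. A gene in a list was represented by its brightest probe set with 1 symbol. Named were all probe sets of the 6 genes; from each list, genes past the threshold at 48 h or 4 h (up to 6), or the 2 of smallest p; and the 5 genes most correlated with Enpp1 and with any other of the 6 that differed by at least 2-fold. The genes, lists and tests were chosen with earlier results of these data known. Alternatives were all 16 arrays, 14 arrays (vehicle 48 h replicate 1 put back), a fit of the compared groups alone, offsets of 1 and 200, a minimum of 1000 or none, median scaling, quantile normalization, a robust trended prior, the probe set of smallest p, the replicate number as a block, and each array left out. Sequences are from RefSeq (GRCr8), cut to the 250 bases before the start.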

Additional observations from a re-analysis of the deposited data

Results flagged for a closer look

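The 3 arrays left out by the authors held values of these genes above the highest kept vehicle array of the same time. In NARA 4 h replicates 1 and 4, Enpp1 was at 5266 and 4964, Nt5e at 4298 and 5666 and Mgp at 13910 and 7159. In replicate 4 Alpl was at 41.24, a signal below the minimum of 300. Spp1 was at 337.9 and 374.1 in these arrays, where the kept NARA 4 h arrays had 22790 and 18880. Summed liver markers were at 819100 and 956400 in them, and at 2356 to 2599 in the kept NARA 4 h arrays. In vehicle 48 h replicate 1, Mgp was at 4210, the brighter probe set of Ankh at 4286 and Alpl at 51.78, above the kept vehicle 48 h arrays. Dixon's criterion at 95% was applied only where 4 arrays were kept, in NARA 48 h and vehicle 4 h. It did not cover the groups of the left-out arrays. In these 14 sets of 4 values, 0 had an array far from the others.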

How the results depend on the processing

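The log2 changes of Enpp1, Nt5e and Spp1 at 48 h and of Enpp1 and Nt5e at 4 h kept their sign in every alternative. In these comparisons every kept NARA array lay above every kept vehicle array. Leaving out 1 array or changing the offset, minimum or prior could therefore not turn the sign. Counts of calls moved more. At 48 h, 586 probe sets passed. With all 16 arrays 39 did, with only the groups compared 217, with no minimum signal 355, with a minimum of 1000 1069, with a robust trended prior 1098, with the replicate block 312, and with 1 array left out 310 to 527. Of the 6 probe sets of these genes 2 passed at 48 h, 3 with the robust trended prior, and 1 with all 16 arrays and with only the groups compared. Nothing is read from calls of these genes in any comparison that uses 48 h arrays, since they were chosen on those values. At 4 h, 0 passed, against 1, 4, 2 and 9 with all 16 arrays, only the groups compared, a minimum of 1000 and the trended prior, and 0 to 19 with 1 array left out (11 and 19 without NARA 4 h replicate 2 or 3, fits that assume the lone NARA 4 h array varies like the other groups, and 0 without any other). Between 48 h and 4 h in vehicle 0 passed, and 0 to 2 with 1 array left out.

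Between 48 h and 4 h under NARA 164 passed, against 27 with all 16 arrays, 13 with only the groups compared, 79 with no minimum, 325 with a minimum of 1000, 101 with median scaling, 372 with the trended prior and 69 to 152 with 1 array left out. The block gave 51. Of these genes 1 passed there, and 0 with all 16 arrays, only the groups compared and the block, and 0 to 1 with 1 array left out (0 without NARA 4 h replicate 3). The difference of the NARA effects gave 26 calls, against 0 with all 16 arrays, 60 with 14 arrays, 46 with an offset of 200, 11 with no minimum, 93 with a minimum of 1000, 16 with median scaling, 126 with the trended prior, 0 with the block and 1 to 32 with 1 array left out. Of the 63 pathway genes 5 passed at 48 h, against 0 with all 16 arrays, 7 with 14 arrays and 1 with only the groups compared. The count was 3 with no minimum, 7 with a minimum of 1000 and 4 with quantile normalization or median scaling. It was 8 with the trended prior, 3 with the block and 3 to 6 with 1 array left out. The cause of these shifts was not tested.

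Some signs turned. With all 16 arrays the log2 change at 4 h was 0.474 for Mgp and -2.795 for Spp1. With all 16 or 14 arrays that of Enpp1 in vehicle between the times was -0.143. With all 16 arrays the change under NARA between the times was 1.292 for the dimmer probe set of Ankh, -0.142 for Nt5e, -0.686 for Mgp and 2.774 for Spp1. With 1 array left out, values at 4 h ran from -0.358 to 0.0581 and -0.297 to 0.0808 for the brighter and dimmer probe sets of Ankh, -1.046 to 0.229 for Mgp (without NARA 4 h replicate 2 and replicate 3, against -0.408 with all 13 arrays) and -0.0904 to 0.18 for Spp1. In vehicle between the times they ran from -0.185 to 0.0162 and -0.0855 to 0.159 for Ankh and -0.0409 to 0.295 for Nt5e. Under NARA between the times they ran from -0.169 to 0.247 and -0.217 to 0.161 for Ankh, -0.441 to 0.834 for Mgp and -0.201 to 0.0695 for Spp1.

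Arrays of the same replicate number did not deviate together strongly, with correlations of -0.0364 to 0.03869 over 16 pairs of arrays. The pairs share arrays and the deviations were taken from group means. These values therefore cannot show whether arrays of the same number had a common origin. The probe set of Alpl, below the minimum signal, had no call in any setting that kept a minimum.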
